A study of Mus musculus with 4 samples.

Results

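Livers of wild type mice at 8 months of age were compared with livers of wild type mice at 2 months, gene by gene, as the difference of log2 levels between 2 Affymetrix Mouse Gene ST arrays of total RNA. These are 2 of the 4 arrays of a study of SIRT6, a chromatin-bound, NAD-dependent deacylase linked to metabolism and ageing. The WT groups carried wild type SIRT6 at 2 and at 8 months. The other 2 groups, labelled KO, were SIRT6Co/Co ;Alb-Cre mice at the same ages, in which Cre recombinase is driven by the albumin promoter, active in hepatocytes. Every group had 1 array, hybridised with the joined RNA of 3 pairs of animals. A pool stands in for its animals, so a difference between arrays has no replicate check and was not tested. Sex, strain background and feeding state of the mice are not given in the sources used here. Of 19938 genes with a value, 11963 passed a filter on low levels and are the genes described. A gene was called when it was at least 1.5-fold apart, 0.58 on the log2 scale. The KO arrays share no array with the WT comparison, and their difference between 8 and 2 months is set beside it throughout.

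The adult mouse liver is made up mainly of hepatocytes, which secrete plasma proteins and carry out bile acid, lipid, amino acid and drug metabolism, together with resident macrophages (Kupffer cells), stellate cells, endothelium and bile duct cells. At 2 months a mouse has just reached adulthood, and at 8 months it is a mature adult and not yet old. Postnatal liver growth is accompanied by a gradual loss of proliferation and of fetal and immature transcripts, and sex-dependent hepatocyte genes reach their adult pattern around puberty.

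The array medians over all probe sets were 3.57, 3.58, 3.52 and 3.56 in the order young WT, older WT, young KO and older KO, which is kept wherever 4 levels are given below. Hepatocyte defining genes were high in every array: albumin (Alb) read 12.54, 12.56, 12.60 and 12.52 and transthyretin (Ttr) read 12.14, 12.17, 12.33 and 12.25. Sirt6 itself read 4.55, 4.50, 4.54 and 4.46, so this level separated neither the genotypes nor the ages and does not check the KO label, and what part of the gene its probes cover was not examined. Markers of sex did not move as one between the WT arrays. Xist, the noncoding RNA of the inactive X chromosome, read 4.42, 3.08, 2.66 and 2.29, with its mean below the filter, and was lower by 1.34 at 8 months (a log2 difference of -1.34), while the Y-linked Eif2s3y read 7.04, 7.27, 7.43 and 7.34, Uty read 6.18, 6.37, 6.63 and 6.58 and Kdm5d read 5.57, 5.53, 5.64 and 5.56. The part of these differences in the results was not tested.

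The WT liver differed little between the ages. The difference was within 0.25 log2 units for 10570 genes (88.4%), its median was 0.00 and its SD over genes was 0.17. At 8 months 25 genes were at least 1.5-fold higher (0.209% of the genes tested) and 53 were at least 1.5-fold lower (0.443%), and 7 and 8 of them were at least 2-fold apart. Higher genes made up 32.1% of those called, or 43.2% after centring each array on its median. In the KO arrays 45 genes were higher (0.376%) and 33 were lower (0.276%), which is also 78 in all, and 1 was past 2-fold. Between the genotypes the SD over genes was 0.35 at 2 months and 0.30 at 8 months, against 0.17 and 0.19 between the ages in WT and KO.

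The calls were unevenly spread over signal strength. With the genes cut by mean level into 5 bands of like size, 16 of the 53 lower genes lay in the lowest band, 23 in the next and 0 in the highest. Of the 25 higher genes, 1 lay in the lowest band, 10 in the last but one and 6 in the highest. The share of genes above 0 also varied with level, from 46.0% in the middle band to 58.8% in the highest. The nearest genes inside the threshold were at 0.61 and 0.60 on the higher side, both predicted genes, and at -0.59 on the lower side, the stonin gene Ston1 and the caveolin gene Cav2. The nearest outside were the fatty acid omega-hydroxylase Cyp4a31 at 0.58 and the hydrolase-like gene Abhd14a and the mesothelial gene Msln, both at -0.58.

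The gene with the largest difference was Cyp17a1, the steroid 17-hydroxylase and lyase of androgen synthesis, which is transcribed in the liver of rodents as well as in gonads. It read 3.29 in WT at 2 months, 6.16 in WT at 8 months, 2.92 in KO at 2 months and 2.89 in KO at 8 months, a WT difference of 2.87 (7.31-fold) against -0.03 in KO. The other 3 readings were each under the filter value of 3.34, so the fold and the KO difference rest on dim signal. The mean of the gene passed the filter only through WT at 8 months. That array was high and the other 3 lay together. Asns, asparagine synthetase, which makes asparagine from aspartate and is a target of the amino acid and stress response through ATF4, had the same form. It read 4.52, 6.18, 4.59 and 4.73, a WT difference of 1.66 (3.17-fold) against 0.14 in KO. Asic5, an acid-sensing family ion channel that is activated by bile acids, read 7.0, 8.06, 7.47 and 7.45, a difference of 1.06 (2.09-fold) against -0.02, and As3mt, which methylates arsenic, read 5.44, 6.27, 5.71 and 5.82, a difference of 0.83 against 0.11.

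A second group of higher genes was high in both KO arrays and lowest in WT at 2 months. Cwc22, a splicing factor whose gene lies in a segment that varies in copy number among mouse strains, read 5.18, 6.84, 7.97 and 7.82, a difference of 1.65 (3.15-fold) against -0.15. Of its 8 probe sets, 7 held the same values, with a difference of 1.89, and the remaining one was at -0.02, so the call rests on the repeated set. Fam171b, a membrane protein gene, read 2.79, 4.34, 5.12 and 4.93, a difference of 1.55 (2.92-fold) against -0.19. Its reading of 2.79 was under the filter value of 3.34, so the fold rests on dim signal. Nnmt, nicotinamide N-methyltransferase, which uses S-adenosylmethionine to methylate nicotinamide and so draws on the pool that feeds NAD, read 4.43, 5.80, 7.38 and 7.15, a difference of 1.37 (2.59-fold) against -0.23. In these genes WT at 8 months lay between WT at 2 months and both KO arrays. The same order held for the thioesterase family gene Them7 at 0.83, the exchange factor Rasgef1b at 0.75, the zinc finger gene Zfp971 at 0.70, the NKG2D ligand gene Raet1d at 0.66, the pseudogene Rdh18-ps at 0.63 and the constitutive chaperone Hspa8 at 0.63. In all, both KO arrays were at or past the level of WT at 8 months in 9 of the 25 higher genes. For Hspa8 the 3 probe sets differed by 0.13, 0.16 and 1.60 between the WT arrays, so its call rests on the last of them.

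A further group of higher genes was lower in both KO arrays than in either WT array. Fkbp5, a co-chaperone of the glucocorticoid receptor and a classic glucocorticoid target, read 7.18, 7.96, 5.01 and 4.70, a WT difference of 0.78 against -0.31. Setdb2, a histone methyltransferase family gene, read 6.06, 6.88, 5.55 and 5.22, a difference of 0.81 against -0.32. Phf11c, a gene of the PHD finger 11 family, read 4.89, 5.96, 4.68 and 3.95, a difference of 1.07 in WT and -0.73 in KO. Plin5, the lipid droplet protein that links droplets to mitochondria, read 5.97, 6.61, 5.42 and 5.66, a difference of 0.64 against 0.24. Of the other higher genes, the nucleolar chaperone Npm1 read 6.33, 7.06, 7.23 and 6.72 and was at 0.74 against -0.51, and Zzz3, a subunit of a histone acetyltransferase complex, was at 0.67 against -0.15.

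**Figure D1:**
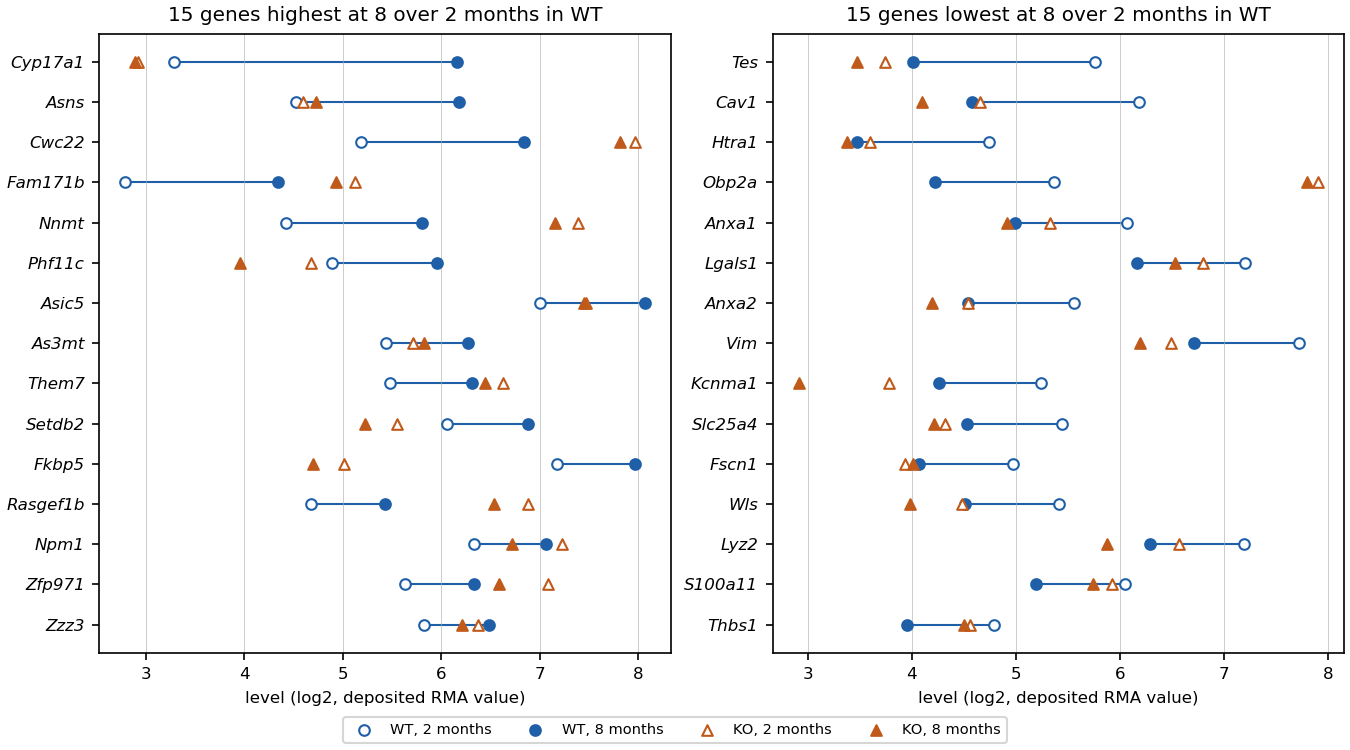
Levels of the 15 genes highest (left) and the 15 lowest (right) at 8 over 2 months in WT, on the horizontal axis as deposited log2 RMA values, with 1 point per array: circles for WT and triangles for KO, open at 2 months and filled at 8 months, with a line joining the WT pair. Cyp17a1 at 6.16 and Asns at 6.18 stand apart in WT at 8 months, while Tes at 5.76 and Cav1 at 6.18 stand apart in WT at 2 months.

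The lowest genes at 8 months were Tes, Cav1 and Htra1. Tes, the focal adhesion protein testin, read 5.76, 4.02, 3.74 and 3.47, a WT difference of -1.75 (3.36-fold lower) against -0.27 in KO. Cav1, the coat protein of caveolae, read 6.18, 4.58, 4.66 and 4.10, a difference of -1.60 (3.03-fold lower) against -0.56. Htra1, a secreted serine protease of the extracellular matrix, read 4.74, 3.48, 3.60 and 3.38, a difference of -1.26 (2.40-fold lower) against -0.22. In each of these WT at 2 months was high and the other 3 arrays lay well below it.

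The 15 lowest genes also held a pair of annexins, which bind membranes in the presence of calcium. Anxa1 read 6.07, 5.0, 5.33 and 4.92, a difference of -1.07 against -0.41, and Anxa2 read 5.56, 4.54, 4.54 and 4.19, a difference of -1.01 against -0.35. Vim, the intermediate filament vimentin, read 7.72, 6.71, 6.50 and 6.20, a difference of -1.01 against -0.30. Lgals1, the galactoside-binding lectin galectin-1, read 7.20, 6.17, 6.79 and 6.53, a difference of -1.04 against -0.26. Here WT at 8 months was the lowest array. The annexin partner S100a11 was at -0.86 against -0.18, with its 2 probe sets at -0.98 and -0.73, and the actin bundler Fscn1 was at -0.90 against 0.07. Wls, which carries WNT proteins to the cell surface, read 5.42, 4.51, 4.49 and 3.98, a difference of -0.90 against -0.50.

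Other lower genes had other roles. Slc25a4, the ADP/ATP carrier of heart and muscle mitochondria, was at -0.91 against -0.10. Thbs1, the matricellular protein thrombospondin-1, was at -0.84 against -0.06. Obp2a, an odorant-binding lipocalin, read 5.37, 4.23, 7.90 and 7.80, a difference of -1.15 against -0.10, so WT at 2 months lay between WT at 8 months and both KO arrays. The cytoskeletal linker Msn was at -0.64 against 0.14, and the actin-binding Tagln2, at -0.78 in WT, was at 0.42 in KO.

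A few further called genes are named for their roles, chosen after their values were seen. Fgl1, a hepatocyte-secreted fibrinogen-like protein, read 9.14, 9.76, 9.68 and 9.63, a difference of 0.63 against -0.05, with WT at 2 months low and the other 3 arrays together. Cpe, a carboxypeptidase that trims peptide hormones, read 4.45, 3.62, 3.18 and 2.95, a difference of -0.83 against -0.23. Il34, an alternative ligand of the CSF1 receptor that maintains macrophages, read 4.59, 3.93, 3.57 and 4.01, a difference of -0.66 against 0.44, and Lipg, endothelial lipase, read 5.69, 5.09, 5.71 and 5.71, a difference of -0.60 against 0.00. Lipg missed the threshold with each array centred on its median, and its array of WT at 8 months was low and the other 3 arrays lay together. The ephrin ligand gene Efnb2 was at -0.72 against -0.13 and the membrane repair protein gene Myof at -0.65 against -0.07. Of all called genes 2 higher and 3 lower ones are predicted genes and are not described.

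The 2 directions differed in how the KO arrays behaved. Among the 25 higher genes the KO difference had the same sign in 5 (20%), with a median of -0.18, beside a WT median of 0.74. Among the 53 lower genes it had the same sign in 32 (60.4%), with a median of -0.07 beside -0.72 in WT. Over all 11963 genes the share was 46.6% and the KO median was -0.03. WT at 2 months was at least 1.5-fold from each of the other 3 arrays in 10 of the higher and 20 of the lower genes, and WT at 8 months in 8 and 8. Across all genes the WT and KO age differences had a Pearson correlation of -0.06 and a Spearman correlation of -0.09, given as a description, since genes are not independent replicates and the arrays may share a normalization.

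**Figure D2:**
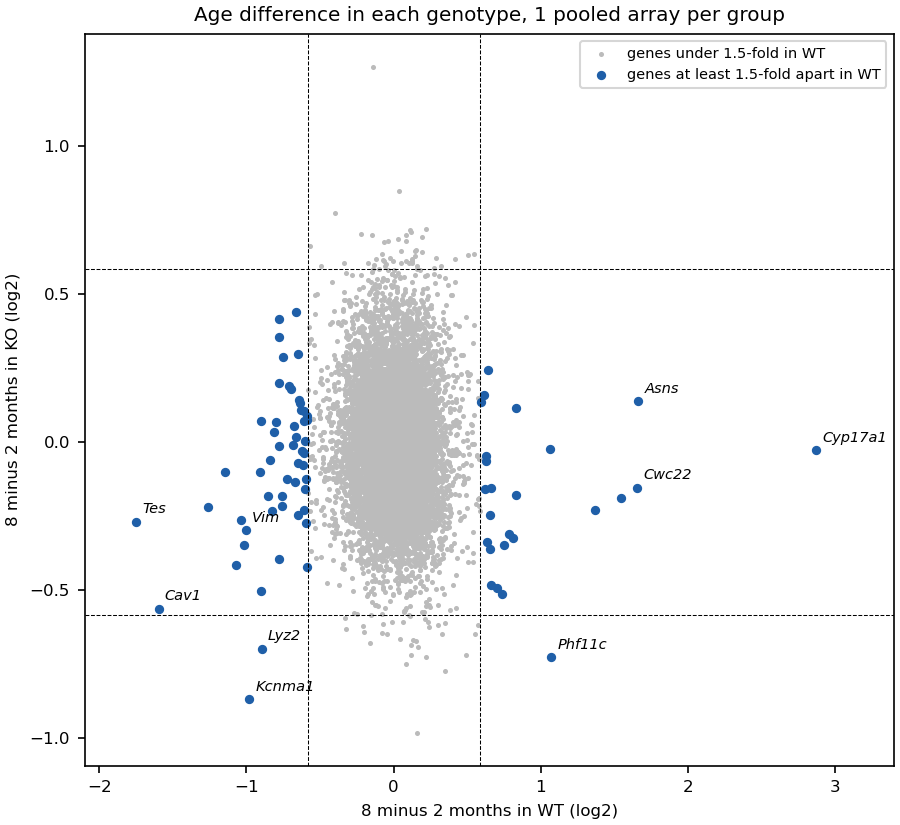
Difference between 8 and 2 months in WT (horizontal) and in KO (vertical), both in log2 units, with 1 point per gene past the filter, dashed lines at 1.5-fold and blue points for the 78 genes past it in WT. Kcnma1 and Lyz2 lie past the line on the lower side in both genotypes, Phf11c lies past it in opposite directions, and Cyp17a1 at 2.87 lies near 0 in KO.

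At 1.5-fold, 2 genes were lower in both genotypes and 0 were higher in both. Lyz2, the lysozyme of macrophages and other myeloid cells, read 7.19, 6.29, 6.57 and 5.87, a difference of -0.90 in WT and -0.70 in KO, so both arrays at 8 months were below both at 2 months. Its near copy Lyz1, which its probes may not fully separate, was at -0.29 and -0.06. Kcnma1, the pore subunit of the large-conductance calcium-activated potassium channel, read 5.24, 4.26, 3.78 and 2.91, a difference of -0.98 in WT and -0.87 in KO. Its 2 probe sets did not move alike: one was at -1.88 and -1.59, and the other, which read between 2.38 and 2.61, was at -0.08 and -0.14.

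An additive model of genotype and age was fitted on all 4 arrays (limma, Benjamini-Hochberg adjustment over 11963 genes). It asks whether the mean of the WT and KO age differences is large against a residual spread. That spread joins the gene's own disagreement, with 1 degree of freedom, to a value drawn from all genes, with 11.3. The model is not a test of the WT difference. With age 0 genes rose (0%) and 1 fell (0.00836%), and at an unadjusted p under 0.05 there were 177 higher and 254 lower. Lyz2 fell by 0.80 (SE 0.10, 1 array in each of 4 groups, limma adjusted p = 0.039), lower in 2 of 2 genotypes, though it kept no adjusted p under 0.05 without the filter (0.84) or without the intensity trend (0.47), within a range of 0.0002 to 0.84 over the alternatives. Kcnma1 was next, at -0.92 (SE 0.13, limma adjusted p = 0.074), and Cav1 was at -1.08 (SE 0.19, limma adjusted p = 0.40). Over the alternatives the limma adjusted p ran from 2.2e-05 to 0.88 for Kcnma1 and from 2.2e-05 to 1 for Cav1, and both were under 0.05 with each of the 3 other scalings, as was Kcnma1 with the highest probe set. Cyp17a1, Asns and Tes, the genes farthest apart in WT, had limma adjusted p values of 1, with KO differences of -0.03, 0.14 and -0.27.

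Markers of the cell types of the liver were then read from lists. The lists were written with an earlier account of these data in view. The shares of called members given below are thus descriptions and not evidence of enrichment. Of 37 measured stellate cell and mesenchymal genes, 7 were at least 1.5-fold lower and 0 higher, where 0.443% and 0.209% of all genes were: Tes, Anxa1, Lgals1, Anxa2, Vim, S100a11 and the matrix protein gene Fbln2, which was at -0.71 in WT and 0.19 in KO. The list's median was -0.19 in WT and -0.11 in KO, 26 of 37 members were below 0, and its mean level was 5.67, 5.39, 5.42 and 5.33. Among all genes 49.3% were below 0. Some markers of quiescent stellate cells lay near 0. The retinol esterifying enzyme Lrat was at 0.09, the intermediate filament desmin (Des) at 0.11, reelin (Reln) at -0.01, decorin (Dcn) at 0.02 and the PDGF receptor Pdgfrb at -0.07. Other members of the list were lower, short of the threshold. Colec11 was at -0.46, Hand2 at -0.24, Ecm1 at -0.23 and Pdgfra at -0.19. Smooth muscle actin (Acta2) read 6.48, 6.45, 4.62 and 4.43, a WT difference of -0.03, and its partner Tagln was at 0.33. These genes were named after their values were seen. In bulk RNA, fewer cells of a type and less RNA per cell cannot be told apart. Xist, lower by 1.34 on the log2 scale, moved with this group, and its part in the result was not tested.

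None of 17 measured collagen genes was called, with a median of -0.10 in WT and 0.09 in KO. The lowest were subunits of fibrillar collagens: Col1a2 read 6.22, 5.67, 5.23 and 5.22 (-0.55), Col1a1 was at -0.44 and Col3a1 at -0.39, against KO differences of 0.00, 0.07 and 0.12. In all 3 both WT arrays were above both KO arrays.

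Of 27 measured Kupffer cell and macrophage genes, 3 were called lower and 0 higher, beside 0.443% and 0.209% of all genes. They were Lyz2, the complement component C1qa, which read 6.18, 5.42, 6.07 and 5.86 (-0.76 in WT, -0.22 in KO), and Tyrobp, the signalling adaptor of myeloid receptors, which read 4.0, 3.38, 3.93 and 3.85 (-0.62 and -0.08). The median was -0.23 in WT and -0.08 in KO, 22 of 27 were below 0 (49.3% of all genes), and the mean level was 5.30, 5.07, 5.43 and 5.30. Short of the threshold, the fractalkine receptor Cx3cr1 was at -0.54, the lysosomal protease Ctss at -0.48, C1qc and the folate receptor Folr2 both at -0.46, C1qb at -0.42, Cd68 at -0.30 and the CSF1 receptor Csf1r at -0.23. Of the genes that define resident Kupffer cells, the lectin Clec4f was at -0.03, the complement receptor Vsig4 at -0.04, the phosphatidylserine receptor Timd4 at 0.02, the scavenger receptor Cd163 at 0.00 and Cd5l at 0.11. Marco, another scavenger receptor, read 3.0, 2.77, 2.80 and 2.86, below the filter, and was at -0.23.

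**Figure D3:**
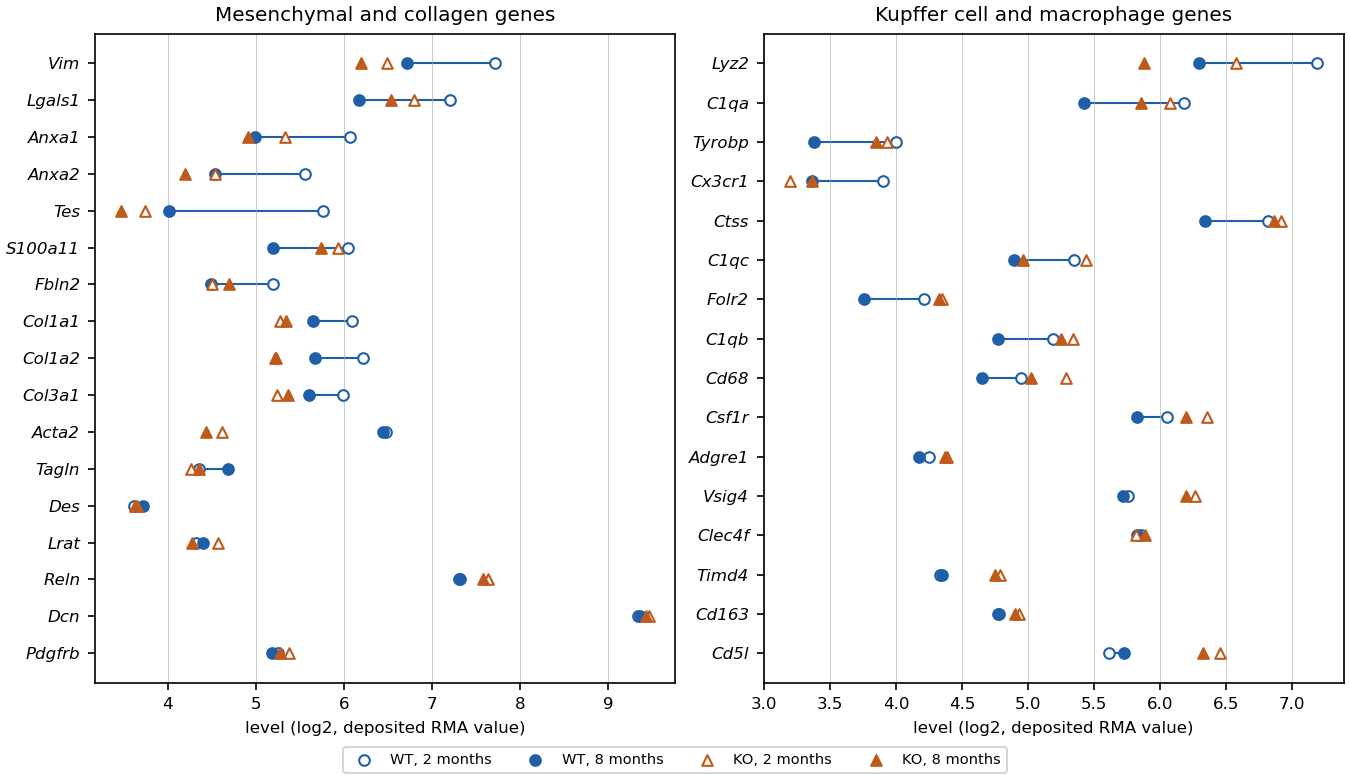
Levels of mesenchymal and collagen genes (left) and of Kupffer cell and macrophage genes (right) as deposited log2 RMA values, with 1 point per array: circles for WT and triangles for KO, open at 2 months and filled at 8 months, with a line joining the WT pair. Vim, Lgals1 and the annexins are about 1 log2 unit lower in WT at 8 months, whereas Lrat, Reln, Clec4f and Timd4 nearly coincide in the 2 WT arrays.

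The lists of other cell types held no called gene. Cav1 and the endothelial lipase gene Lipg, called lower at -1.60 and -0.60, are not in the endothelial list. In WT the median was -0.07 over 27 endothelial genes, with the vascular adhesion gene Pecam1 at 0.06 and the sinusoidal scavenger receptor Stab2 at 0.00. It was -0.20 over 9 bile duct genes, or -0.07 with no filter on level, with keratin 19 (Krt19) at 0.17, and 0.01 over 13 mesothelial genes, with mesothelin (Msln) at -0.58. Lymphocyte and granulocyte lists were mostly below the filter: 6 of 26 B and plasma cell genes, 6 of 30 T and NK cell genes and 2 of 16 neutrophil genes were measured.

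Lists of growth and immaturity were read next. Of 14 measured fetal and early postnatal liver genes, 2 were called lower and 0 higher, beside 0.443% and 0.209% of all genes. They were the imprinted hydrolase gene Mest at -0.81 and the imprinted noncoding RNA Meg3 at -0.61, against 0.03 and 0.11 in KO. The actin-sequestering Tmsb10 was at -0.56. The list's median was -0.09 in WT and 0.07 in KO, or -0.56 and -0.05 with genes above the 60th percentile of level. Few members pass that filter, and the latter medians are the values of Tmsb10 alone. Of 28 measured cell cycle genes 0 were called, 22 were below 0 (49.3% of all genes) and the median was -0.13 in WT and 0.01 in KO, with the replication helicase subunit Mcm3 lowest at -0.55. Outside that list the called genes held the spindle checkpoint gene Mad2l1 at -0.78, the cytokinesis factor Ect2 at -0.76 and the histone gene H4c4 at -0.64. They also held the condensin subunit Ncapd2 at -0.59, which 2 of the other scalings left under the threshold. These genes were named after their values were seen. Mad2l1 read 2.73 in WT at 8 months, under the filter value of 3.34, so its difference rests on dim signal. Senescence and age-associated genes showed no called member among 13 measured, with a median of -0.13 in WT and 0.02 in KO. In that list the cell cycle inhibitors Cdkn2c and Cdkn2a were at -0.53 and -0.21 and the chromatin protein Hmgb2 at -0.42.

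Hepatocyte functions were close to level between the ages. Across 24 secreted plasma proteins the WT differences ran from -0.09 to 0.13 with a median of 0.02. Bile acid genes had a median of 0.10 in WT and -0.10 in KO. Of 26, 22 were above 0, against 50.5% of all genes and 58.8% of the highest band of level. The list is bright, with a mean level of 9.04 in WT at 2 months. Cyp7a1, the rate-limiting enzyme of bile acid synthesis, was the 1 called member, where 0.209% of all genes were called higher. It read 8.09, 8.71, 8.56 and 8.40, a difference of 0.62 against -0.16. WT at 2 months was the low array there. The sterol 12-hydroxylase Cyp8b1 was at 0.24 and -0.14. Of 28 measured cytochromes P450 of families 1 to 3, which oxidise drugs, steroids and lipids, 2 were called higher, beside 0.209% of all genes. The median was 0.12 in WT and -0.08 in KO. The called members were the close paralogues Cyp2c39 and Cyp2c38. Cyp2c39 read 9.76, 10.42, 10.55 and 10.30 (0.66 and -0.25), and Cyp2c38 read 5.73, 6.39, 6.68 and 6.32 (0.65 and -0.36). Probes may not keep such paralogues apart, so the 2 calls may be 1 signal.

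Lipid, glucose and energy genes were read beside the 0.209% of all genes called higher and the 0.443% called lower. Fatty acid synthesis (23 genes), cholesterol (21), fatty acid oxidation and ketogenesis (24), PPAR alpha and its targets (26), lipoproteins (23) and the mitochondrial respiratory chain (58) had no called gene, with WT medians between -0.04 and 0.02. Their outermost members were the desaturase Scd2 at -0.46 and Cyp4a31 at 0.58. Of 36 triglyceride and lipid droplet genes Plin5 was called, and of 28 glycolysis and gluconeogenesis genes the pyruvate kinase Pkm was called lower at -0.62 against -0.03, with probe sets at -0.49 and -0.75. Of 20 sirtuin and NAD genes Nnmt was called, and the deacetylase Sirt1 was at 0.32 in WT and -0.13 in KO.

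Among 30 measured genes of the unfolded protein and integrated stress response, 1 was called higher and 1 lower, beside 0.209% and 0.443% of all genes. Asns was the higher one. Phgdh, the first enzyme of serine synthesis, was called lower at -0.61 against -0.04. It read 3.73, 3.12, 3.28 and 3.24. Its mean passed the filter value of 3.34 only through WT at 2 months, so its call rests on dim signal. The list's median was 0.04 in WT and -0.04 in KO. Other targets of the ATF4 pathway lay on both sides of 0 in WT: the cysteine-forming enzyme Cth was at 0.54, the transcription factor Ddit3 at 0.39 and Sesn2 at 0.23, while the stress cofactor Nupr1 was at -0.52, the pseudokinase Trib3 at -0.37 and the glutathione-degrading Chac1 at -0.26. Nupr1 was at 0.50 in KO. The amino acid response element was searched as TGATGNAAN on both strands in the 250 bases before the start. It was present in 6 of 27 listed genes with a promoter entry (22.2%) and in 221 of all 9543 (2.32%). The list was chosen for this response, so its larger share is a description only. Of 16 genes called higher with a promoter entry, 1 had a match (6.25%), which was Asns. Asns, Chac1 and Nupr1 are shown because they carry a match and differ in direction. The other listed genes with a match, Fgf21, Herpud1 and Vldlr, were at -0.04, -0.02 and -0.17 in WT. The RefSeq sequences (GRCm38.p6) are chr6:7693210-7693459 on the minus strand for Asns, chr2:119350992-119351241 on the plus strand for Chac1 and chr7:126625471-126625720 on the minus strand for Nupr1. They are written 5′ to 3′ along each gene, with the match in capitals.
Asns: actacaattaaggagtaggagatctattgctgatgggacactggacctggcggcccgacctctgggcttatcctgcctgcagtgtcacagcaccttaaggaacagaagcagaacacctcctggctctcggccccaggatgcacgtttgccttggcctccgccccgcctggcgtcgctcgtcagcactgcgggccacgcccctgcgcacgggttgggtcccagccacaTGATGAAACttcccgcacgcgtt
Chac1: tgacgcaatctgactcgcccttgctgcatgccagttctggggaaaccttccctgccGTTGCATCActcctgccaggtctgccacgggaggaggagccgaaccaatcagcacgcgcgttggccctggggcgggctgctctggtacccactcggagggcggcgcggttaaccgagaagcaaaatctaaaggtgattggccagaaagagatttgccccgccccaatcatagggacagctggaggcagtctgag
Nupr1: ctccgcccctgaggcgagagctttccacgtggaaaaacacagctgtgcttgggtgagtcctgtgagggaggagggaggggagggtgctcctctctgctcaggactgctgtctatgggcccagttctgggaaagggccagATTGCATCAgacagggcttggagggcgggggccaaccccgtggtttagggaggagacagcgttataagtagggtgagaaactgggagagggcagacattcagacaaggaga
The Asns match lies on the gene's own strand, and those of Chac1 and Nupr1 read as its reverse complement. The WT differences of these genes were 1.66, -0.26 and -0.52. Such a match is a description of letters, not of a working site.

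Of 19 glucocorticoid-induced genes Fkbp5 was called, where 0.209% of all genes were called higher. In this list 17 were above 0, against 50.5% of all genes and 58.8% of the highest band of level. The list's mean level was 8.19 in WT at 2 months, and its median difference was 0.07 in WT and -0.04 in KO. The mTOR inhibitor Ddit4 was at 0.42 in WT and 0.62 in KO, the metallothionein Mt2 at 0.38 and the leucine zipper gene Tsc22d3 at 0.31. The period gene Per1 at 0.02 and the gluconeogenic enzyme Pck1 at 0.00 were near 0. The 14 core clock genes, whose levels swing with time of day, ran from -0.15 for Nr1d1 to 0.15 for Bhlhe41 in WT, with Arntl at 0.01 and Per2 at -0.01. Among 21 clock output genes the repressor Ciart was highest at 0.51, or at 0.83 by its brighter probe set.

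Inflammatory lists held no called gene. The WT medians were -0.04 over 24 interferon-stimulated genes and -0.09 over 15 antigen presentation genes. Over 23 acute phase genes the median was 0.04, with the orosomucoid Orm3 at 0.54 and the serum amyloid Saa2 at -0.39. Among 18 chemokine and cytokine genes the adhesion molecule Vcam1 was at -0.55 and the growth factor Tgfb1 at -0.45, against 0.03 and 0.08 in KO.

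Sex-dependent hepatocyte genes were also read, since Cyp17a1 is female-biased in mouse liver and Xist differed. Of 26 male-biased genes 0 were called, and the median was 0.11 in WT and -0.08 in KO. In this list 21 were above 0, against 50.5% of all genes and 58.8% of the highest band of level. The list's mean level was 8.85 in WT at 2 months. Of 17 female-biased genes Cyp17a1 was called, where 0.209% of all genes were called higher, and the median was -0.03 in WT and -0.08 in KO. The strongly female-biased Cyp2b9 read 8.00, 7.93, 9.67 and 9.67 and was at -0.06, and Cyp2b13 was at -0.20, while the transporter Slco1a4 was at 0.41 and the peroxisomal transporter Abcd2 at -0.41. Xist and Cyp17a1 thus lay in opposite directions between the WT arrays, and the part of sex in the Cyp17a1 difference was not tested.

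Of the 47 lists read, 34 held no called gene, and their medians lay between -0.20 and 0.11. Of the 78 genes called in WT, 23 were in a list, 9 of the 25 higher and 14 of the 53 lower. Of all 11963 genes past the filter, 971 were in a list. As the lists were written with earlier results of these data known, the overlap is a description only.

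**Figure D4:**
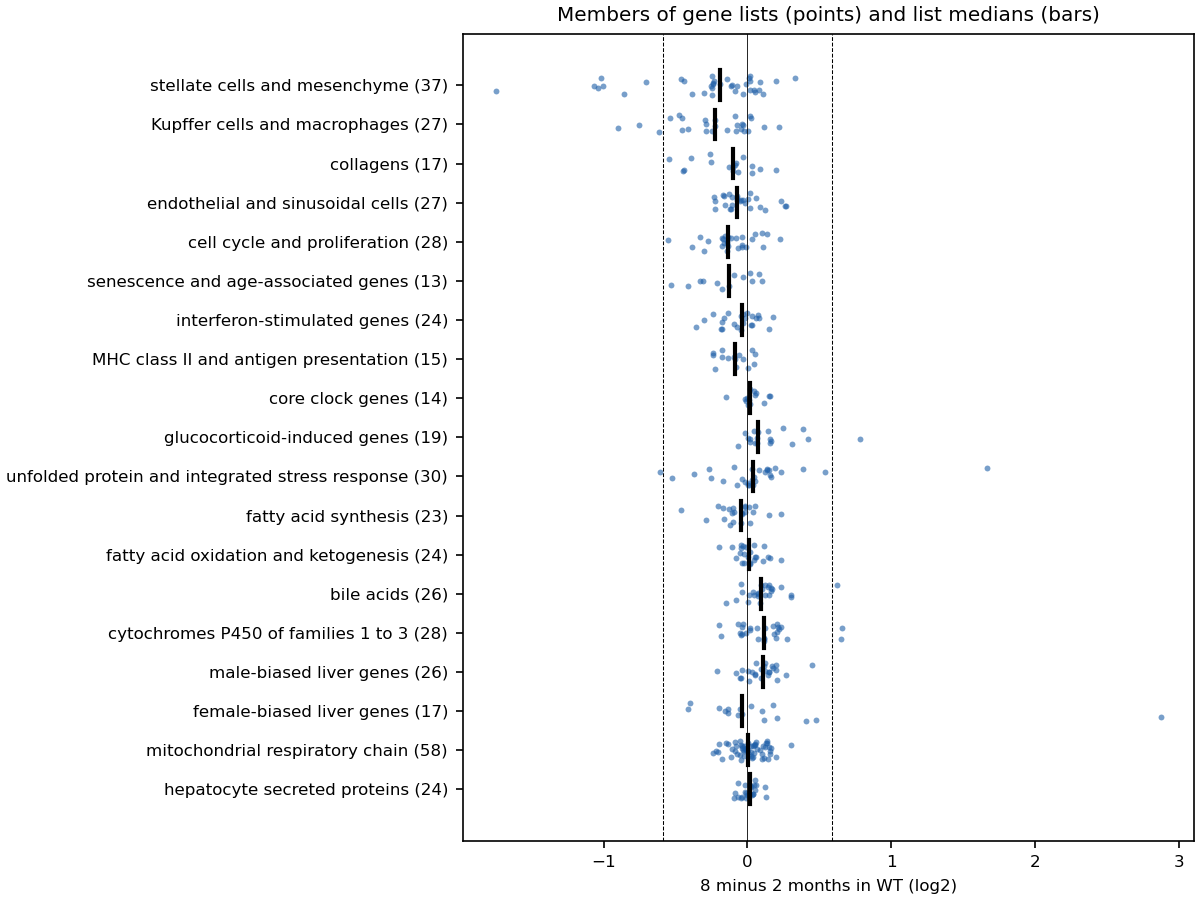
Difference between 8 and 2 months in WT, in log2 units, for the measured members of 19 gene lists, with 1 point per gene, the number of members in brackets, a bar at each list's median and dashed lines at 1.5-fold; points are spread vertically only for legibility. The stellate and macrophage lists extend below the lower line, down to Tes at -1.75, while the clock, respiratory chain and secreted protein lists lie within it.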

How the data were processed

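Gene expression was measured in liver on 4 Affymetrix Mouse Gene ST arrays, 1 array of pooled RNA for each of 2 genotypes and 2 ages. The submitters' processing notes name RMA and Affymetrix Expression Console 1.0v. The values the authors deposited are read as log2, the scale that RMA gives, although the table does not state it. Which arrays were normalized together, the annotation and the build are not given in the sources used here. RMA corrects background, equalises array distributions and compresses differences of dim probe sets. An array has no read depth, and the number of arrays limits the precision.

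Of 35556 probe sets, the platform table gave 21789 a single symbol and 1621 more than 1, and 12146 are absent from it and unnamed here. Of the named ones 21698 matched RefSeq (GRCm38.p6) by Entrez identifier and 0 symbols changed. Probe sets of a gene were averaged (999 genes had several). Genes whose mean over 4 arrays exceeded the 40th percentile, 3.34, were kept. The additive model was fitted with lmFit and eBayes (intensity trend) of limma 3.58.1 in R 4.3.3, with 1 residual and 11.3 prior degrees of freedom, at an adjusted p of 0.05. Its p-values measure neither the spread between pools nor that between animals. On 20 simulated sets with 200 changed genes it recovered 55 to 90% of 1.5-fold and 99 to 100% of 2-fold changes. Of its calls there, 2.53 to 24.4% were unchanged genes. On the 4 arrays the mean age difference was -1.08 for Cav1, -1.01 for Tes and 1.42 for Cyp17a1. All were past 2-fold, and the main fit called none of them. How the recovery rates apply to genes whose WT and KO differences disagree was not tested.

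The comparison, the gene lists and the tests were chosen with earlier results of these data known. The lists were matched by exact symbol: 971 of 1279 genes were measured. Named genes are the 15 highest and 15 lowest in WT, those past 1.5-fold in both genotypes and called members of the lists described. They also include the first 10 by adjusted p, Sirt6, Xist and Y-linked genes. Of each list's 4 most extreme members on either side, only some are named in the text. Predicted genes, small RNAs and receptor or immunoglobulin segments were counted and not named. Genes next to the threshold, defining cell markers, neighbours of called genes and a few others called in WT were named after their values were seen. Alternatives to the filter, scaling, probe set rule, fold and trend were run.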

Additional observations from a re-analysis of the deposited data

Results flagged for a closer look

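Phf11c was at least 1.5-fold apart in opposite directions in the 2 genotypes, at 1.07 in WT and -0.73 in KO (8 minus 2 months, log2), and no other gene past the filter was. It read 4.89, 5.96, 4.68 and 3.95 in young WT, older WT, young KO and older KO. With 1 array per group the difference between the genotypes was not tested.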

How the results depend on the processing

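At 2-fold 7 genes were higher and 8 lower in WT, and 0 were lower in both genotypes. Keeping genes above the 60th percentile left 20 lower in WT and 1 lower in both, as 41 of the 78 called genes pass that filter. The other filters, scalings and probe set rule kept the WT counts within 1.5 times. All 78 were among the 112 called with no filter, 71 were kept by median centring, 75 by quantile normalization again, 74 by cyclic loess and 74 with the highest probe set. Requiring every probe set of a gene past the fold, chosen after seeing the data, left 23 higher and 51 lower. In the additive model, the number that fell was 0 with no filter, 0 with no trend, 12 with median centring, 3 with quantile normalization, 3 with cyclic loess and 2 with the highest probe set, and 2 rose with median centring (Cyp17a1 and Asns). The cause was not tested. Of calls lost under a scaling or probe set rule, Cav2, Chst8, Gpx8, Lipg, Ncapd2, Serpinb6a and Ston1 (-0.58 to -0.57) missed 1.5-fold with median centring. Cav2, Chst8, Ncapd2 and Ston1 (all -0.58) missed it with cyclic loess. Chst8 (-0.58), Cyp2c39 (0.58) and Hspa8 (0.57) missed it after quantile normalization. Hspa8 (0.16) and Pkm (-0.49) missed it with the highest probe set. Cyp4a31 (0.60, median centring) and Ciart (0.83, highest probe set) passed it. Chst8 read 3.91, 3.32, 3.23 and 3.32, so its mean passed the main filter only through WT at 2 months. For 146 genes, those called and the others named, 948 of 966 values kept their side of 1.5-fold. No called difference changed sign. With no filter the median of T and NK cell genes went from 0.05 to -0.06 and that of bile duct genes from -0.20 to -0.07. With the 60th percentile that of neutrophil genes went from -0.04 to 0.06 and that of fetal genes from -0.09 to -0.56. Those filtered medians are the values of single members, Lcn2 and Tmsb10. No paired analysis was possible because each group is 1 array and the labels give no replicate numbers, and no array could be left out, since 3 arrays leave the model 0 residual degrees of freedom.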

Other observations

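Genes called in WT were compared with their neighbours in the order of protein-coding genes in RefSeq, in which 72 of the 78 could be placed. With at most 5 genes between, 5 pairs of called genes were found, made of 9 genes, and both genes of each pair differed in the same direction. Phf11c and Setdb2 are adjacent, at 1.07 and 0.81, as are the paralogues Cyp2c39 and Cyp2c38 at 0.66 and 0.65. Tes, Cav2 and Cav1 follow each other at -1.75, -0.59 and -1.60. Cav2 encodes the partner of caveolin-1 in caveolae and read 3.95, 3.36, 3.38 and 2.96. Cyp17a1 and As3mt, at 2.87 and 0.83, have 1 gene between them, Borcs7, at 0.18 and below the filter. The genes just outside these groups are uncalled by construction, since a called one would have joined the group. Among them Cyp2c67, beside Cyp2c38, was at 0.20 in WT and -0.27 in KO. In WT Cab39l was at 0.18, Cyp2c29 at 0.02, Wbp1l at 0.04, Cnnm2 at -0.06 and Tfec at -0.05. Met, the receptor of hepatocyte growth factor, was at -0.10.

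Cwc22 and Fam171b, which shared the order of levels across the 4 arrays, lie on one chromosome with 18 protein-coding genes between them, a pair examined after its values were seen. Of those 18, 10 passed the filter and ran from -0.24 to 0.17 in WT, beside 1.65 and 1.55 for the pair. The level of Fam171b in WT at 2 months was under the filter value.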
